A study of Mus musculus with 33 samples.

Results

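The core pluripotency genes described here were 10 genes taken by symbol from the 16336 genes of the expression table: the transcription factor genes Pou5f1, Sox2 and Sall4, the RNA-binding genes Lin28a and Lin28b, the chromatin-associated genes Utf1, Dppa2 and Dppa4, and Dppa5a and L1td1, both of which also code for RNA-binding proteins. They were picked by name, with no threshold on a measured value, all 10 were present in the table, and all 10 passed the filter on low values in every test.

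In embryonic stem (ES) cells, OCT4 (the product of Pou5f1) and SOX2 bind DNA side by side at composite octamer and SOX motifs and act, together with NANOG, on each other's genes and on many other genes of the undifferentiated state. LIN28A and LIN28B bind the precursors of let-7 microRNAs and block their maturation, SALL4 is a zinc finger protein that can recruit the NuRD chromatin complex, and DPPA2 and DPPA4 form a heterodimer that marks promoters of developmental genes. Most of these genes are silenced as ES cells leave pluripotency.

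RNA-seq was carried out on E14Tg2a, a wild-type mouse ES cell line of 129/Ola origin grown in serum with LIF, and on 2 clones made from it, ΔK9.1 and ΔK9.2. In both clones CRISPR/Cas9 had removed, from both alleles, a stretch marked by H3K9me3 that lies between an enhancer of Nanog and the Nanog promoter. Cells were collected undifferentiated (day 0) and on days 4, 6 and 8 of differentiation through embryoid bodies (EBs) without LIF. Per the study's methods, the aggregates spent 4 days on dishes not treated for cell culture. They were then plated sparsely on gelatin-coated culture dishes for 2 or 4 days more. From day 4 to day 6, time and this change of culture cannot be told apart. The comparisons asked how the level of each gene changed with time in each line and whether the clones differed from E14Tg2a on each day. There were 33 libraries in 12 groups, with 3 libraries per line and day, except on day 6, where each line had 2 (replicates 2 and 3). Each ΔK9 group was a single clone, so an effect of the deletion and an effect of clonal origin could not be told apart in either clone alone. A difference shared by both clones could not be told apart from an effect of the transfection, selection and cloning that both went through. All comparisons of the clones on one day shared the same E14Tg2a libraries.

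Levels were in TPM, a unit that scales for transcript length and for the total of the library, and the depth of each library is unknown. The values of a library summed to between 994284 and 998266 TPM over the listed genes, and 12903 to 13905 genes reached 1 TPM. No pair of libraries held the same values (highest correlation on the log2 scale 0.988). Nanog, whose own transcript is outside the deletion, was higher in the clones on day 0, with 326 to 368 TPM in E14Tg2a and 412 to 486 TPM in the 6 clone libraries (log2 fold change 0.38, SE 0.06, limma, adjusted p = 0.00943). The extra-embryonic endoderm markers, a list of 10 genes, summed to between 8.98 and 109 TPM in the E14Tg2a libraries of day 0 and to between 4.91 and 55.3 TPM in the clone libraries.

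Undifferentiated E14Tg2a cells expressed the 10 genes at very different levels. Dppa5a had the highest level, 5265 ± 656 TPM (SD, n = 3), and was the 17th most abundant of the 16336 genes. Pou5f1 followed at 1761 ± 251 TPM (rank 109), then L1td1 at 425 ± 32.3 TPM (rank 317) and Sox2 at 328 ± 23.2 TPM (rank 404). In the middle of the order, Utf1 stood at 251 ± 28.0 TPM and Dppa4 at 130 ± 10.5 TPM. Lin28a (71.8 ± 14.8 TPM), Dppa2 (65.7 ± 7.75 TPM) and Sall4 (56.7 ± 1.37 TPM) came next, with the library values of Dppa2 overlapping those of both neighbours, and Lin28b was far lower at 11.1 ± 1.40 TPM (rank 7697). No other adjacent pair in this order overlapped between its libraries.

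All positions are from the GENCODE annotation of the build that was named in the submitters' processing notes, mm10. Pou5f1 lies at chr17:35506018-35510772 on the plus strand and is overlapped on the other strand by Gm19553. Sox2, a single-exon gene at chr3:34650405-34652461 on the plus strand, lies within the long non-coding gene Sox2ot on the same strand. Sall4 is at chr2:168748332-168767943 (minus strand), Lin28a at chr4:134003330-134018841 (minus), Lin28b at chr10:45376620-45486395 (minus), Utf1 at chr7:139943789-139945112 (plus), Dppa5a at chr9:78367052-78368177 (minus) and L1td1 at chr4:98726734-98738480 (plus). Dppa4 (chr16:48283733-48294237) and Dppa2 (chr16:48303908-48319723) are neighbours on the plus strand, with 9670 bases between them.

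Some of the 10 genes have near-identical copies, among which reads can be divided by the estimation of transcript levels. Dppa2 shares 99.3% identity with Gm9788 over 37.0% of its transcript, and Dppa4 shares 99.4% with Gm14058 over 36.0%. Dppa5a shares 95.9% identity with a Pigp transcript over 67.4% and 95.8% with Gm6798 over 58.2%. On day 0 the copies were low next to the genes themselves, with at most 1.65 TPM for Gm9788, 2.00 TPM for Gm14058 and 1.96 TPM for Gm6798. Pigp, however, was at 27.9 to 35.1 TPM on day 0 and at 68.1 to 96.3 TPM on day 8, so the levels of Dppa5a, and to a lesser degree those of Dppa2 and Dppa4, carry that uncertainty.

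RefSeq promoter entries on GRCm38 were matched for 6 of the 10 genes. The stretches upstream of the start are shown for the 4 genes that stood apart most on day 8 (further on), with matches to 5 short motifs in capitals: the octamer (spelt TTTGCAT), the SOX motif (spelt ACAAAG), the GC box (spelt GGGCGG), the CCAAT box and the TATA box (spelt TATAAA), each looked for on both strands.
Pou5f1 (chr17:35505782-35506017, plus strand): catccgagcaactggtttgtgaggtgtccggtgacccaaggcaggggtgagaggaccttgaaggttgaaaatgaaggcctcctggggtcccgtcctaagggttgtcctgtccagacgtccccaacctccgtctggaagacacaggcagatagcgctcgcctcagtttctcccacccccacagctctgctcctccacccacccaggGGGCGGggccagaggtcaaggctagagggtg
Sox2 (chr3:34649745-34649994, plus strand): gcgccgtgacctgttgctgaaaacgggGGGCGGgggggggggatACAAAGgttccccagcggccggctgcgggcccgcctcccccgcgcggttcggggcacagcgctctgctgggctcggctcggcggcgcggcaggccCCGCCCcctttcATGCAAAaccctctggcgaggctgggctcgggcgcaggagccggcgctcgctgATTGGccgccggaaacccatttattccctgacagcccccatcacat
Utf1 (chr7:139943606-139943788, plus strand): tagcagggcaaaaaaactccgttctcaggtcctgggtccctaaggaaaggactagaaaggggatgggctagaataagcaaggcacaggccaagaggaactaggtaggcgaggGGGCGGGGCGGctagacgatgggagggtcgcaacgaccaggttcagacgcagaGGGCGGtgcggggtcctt
L1td1 (chr4:98726504-98726733, plus strand): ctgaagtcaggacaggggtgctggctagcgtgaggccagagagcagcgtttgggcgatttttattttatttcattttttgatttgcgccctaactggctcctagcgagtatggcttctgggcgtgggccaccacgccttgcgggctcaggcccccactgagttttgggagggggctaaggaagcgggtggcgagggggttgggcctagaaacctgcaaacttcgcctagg
The Sox2 stretch held an octamer (99 bases upstream of the start, minus strand), a SOX motif (206 bases upstream), 2 GC boxes and a CCAAT box. These distances are from the RefSeq start, which lies upstream of the gene start given above, whereas the RefSeq start of Lin28b lies within the annotated gene. An octamer was present in 4.12% and a SOX motif in 16.5% of 32851 promoters searched over the same number of upstream bases. The Pou5f1 stretch held a GC box and the Utf1 stretch 3, of which 2 overlap, and GC boxes were found in 32.7% of all promoters. The stretches of Pou5f1, Utf1 and L1td1 end at the first annotated exon and are shorter (236, 183 and 230 bases) than the 250 bases behind these shares. Over all 250 the Pou5f1 entry also held a CCAAT box. None of these letter strings was in the L1td1 stretch or in that of Lin28a, and the Lin28b stretch held a CCAAT box (33.8% of all promoters). These matches describe the letters only.

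The 10 genes followed 3 time courses. A group of 7, Pou5f1, Sox2, Utf1, Dppa2, Dppa4, Dppa5a and L1td1, fell steeply between day 0 and day 8 in every line. Lin28a and Lin28b rose in every line. Sall4 dipped on day 4 in value and peaked on day 6.

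In E14Tg2a, 9 of the 10 genes had changed by day 6, 7 down and 2 up, against 20% of all tested genes down and 19.6% up (limma on log2(TPM + 1), Benjamini-Hochberg adjusted p under 0.05 as for every call here). All 10 genes had changed by day 8, 8 down and 2 up, against 26.2% down and 32.1% up. By day 8 the median log2 fold change was -3.89 over the 10 genes and 0.05 over all genes. Because these are bulk samples, fewer cells expressing a gene and less RNA of it per cell cannot be told apart.

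**Figure D1:**
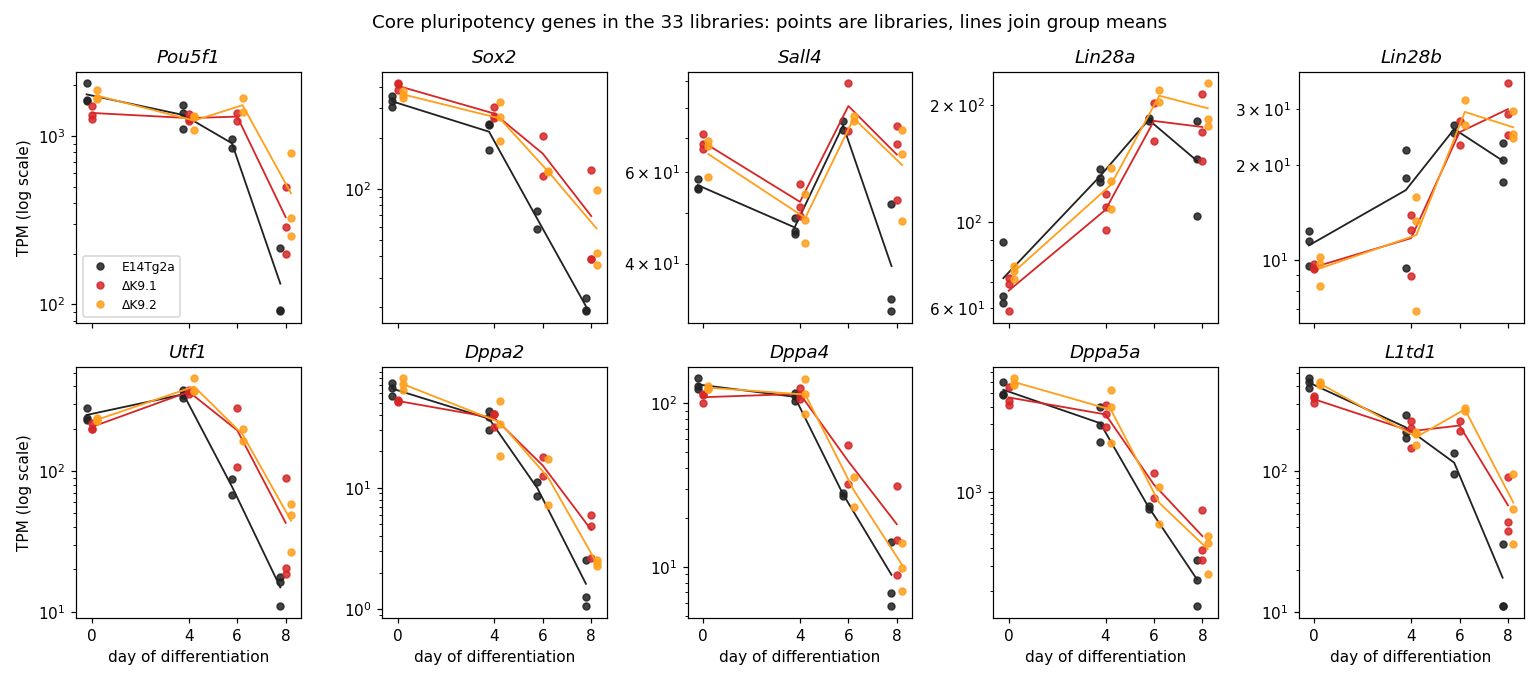
TPM (log axis, a separate range in each panel) against day of differentiation for each of the 10 genes; points are the 33 libraries, coloured by line, and lines join the group means. Pou5f1, Sox2, Utf1, the Dppa genes and L1td1 fall to day 8, with the E14Tg2a mean the lowest of the 3 lines on that day, while Lin28a and Lin28b rise and Sall4 peaks on day 6.

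Pou5f1, the gene of OCT4, was slow to fall. Its E14Tg2a libraries held 1602, 1631 and 2049.5 TPM on day 0, 1094, 1522 and 1369 TPM on day 4, 848 and 959 TPM on day 6, and 215, 92.3 and 91.0 TPM on day 8. The libraries of days 6 and 8 lay below all those of day 0 and did not overlap each other. The mean was still at 75.4 ± 12.3% of the day 0 level on day 4 (SD, n = 3) and at 51.3% on day 6 (n = 2), and then dropped to 7.55 ± 4.05% on day 8. The fall from day 6 to day 8 (log2 fold change -2.88, SE 0.35, limma, adjusted p = 1.07e-05) was larger in value than that from day 0 to day 6 (-0.95, SE 0.35, adjusted p = 0.0341).

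Sox2, the partner of OCT4 on DNA, went down earlier. Its E14Tg2a libraries held 305, 351 and 328 TPM on day 0, 243, 239 and 171 TPM on day 4, 58.1 and 74.4 TPM on day 6, and 22.7, 19.0 and 19.4 TPM on day 8. No 2 days overlapped. By day 8 Sox2 fell by 3.95 on the log2 scale (SE 0.33, limma, adjusted p = 3.23e-10), and 20.2% of the day 0 mean was left on day 6, where 51.3% of Pou5f1 was left.

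Utf1, whose protein associates with chromatin in ES cells, first stood higher and then fell. Its E14Tg2a libraries held 283, 239 and 230.2 TPM on day 0, 378, 347 and 330.4 TPM on day 4, 67.2 and 88.3 TPM on day 6, and 17.5, 10.9 and 16.3 TPM on day 8. The libraries of day 4 were all above those of day 0, although the difference did not pass the test (log2 fold change 0.49, SE 0.37, limma, adjusted p = 0.362). From day 4 to day 6 it fell by 2.17 on the log2 scale (SE 0.42, limma, adjusted p = 0.000601).

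The Dppa genes and L1td1 were lower in value from day 4 onwards. Of its day 0 level Dppa2 kept 56.5 ± 9.76% by day 4 and 15.1% by day 6, and the 2.47 ± 1.22% left by day 8 was the lowest share among the 10 genes. Dppa4, its partner and genomic neighbour, was at 84.1 ± 4.91%, 21.3% and 6.86 ± 3.54% on the same days. Dppa5a went from 58.0 ± 16.6% to 14.8% and 4.55 ± 1.64%. L1td1, which is related to the first open reading frame of LINE-1 elements, had the largest fall by day 4, to 48.2 ± 9.76%, and passed the test there together with Dppa2 (log2 fold change -1.07, SE 0.33, adjusted p = 0.0196 for L1td1, and -0.81, SE 0.29, adjusted p = 0.0403 for Dppa2, limma). With Lin28a, which rose, these were the 3 of 10 genes called on day 4, when 10.4% of all genes were called up and 15.9% down.

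The level of each gene was followed to the day on which its mean reached 50% of day 0, interpolated on the log2 scale between days, with the range over leaving out each library in turn. In E14Tg2a this was day 3.80 (range 3.25 to 4.11) for L1td1, 4.18 (4.07 to 4.30) for Dppa2, 4.22 (3.92 to 4.37) for Dppa5a, 4.47 (4.39 to 4.59) for Sox2, 4.76 (4.71 to 4.82) for Dppa4, 5.37 (5.25 to 5.49) for Utf1 and 6.03 (5.83 to 6.12) for Pou5f1. The ranges of Sox2, Dppa4, Utf1 and Pou5f1 did not touch one another. Those of L1td1, Dppa2 and Dppa5a overlapped.

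Lin28a and Lin28b rose while the other genes fell. Lin28a libraries of E14Tg2a held 88.9, 64.5 and 62.0 TPM on day 0, 127, 130.2 and 137 TPM on day 4, 182 and 185 TPM on day 6, and 182, 103 and 146 TPM on day 8. All libraries of the later days were above those of day 0, and day 8 spread more widely than day 6. Relative to day 0, the log2 fold change reached 0.88 by day 4 (SE 0.17, limma, adjusted p = 0.000319), 1.36 by day 6 (SE 0.19, adjusted p = 2.49e-06) and 0.97 by day 8 (SE 0.17, adjusted p = 1.85e-05). Lin28b, the less abundant paralogue, went from 11.1 ± 1.40 TPM to 26.0 TPM on day 6 and 20.6 ± 2.86 TPM on day 8 (log2 fold change from day 0 to day 8 0.83, SE 0.24, adjusted p = 0.00433).

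Sall4, a zinc finger factor, changed least. In E14Tg2a it stood at 56.7 ± 1.37 TPM on day 0, 47.0 ± 1.80 TPM on day 4, 74.0 TPM on day 6 and 39.6 ± 11 TPM on day 8. The rise from day 4 to day 6 passed the test in every line (log2 fold change 0.64, SE 0.17, limma, adjusted p = 0.00647 in E14Tg2a, with 0.60 and 0.63 in the clones, adjusted p = 0.0154 and 0.00567). By day 8 Sall4 had fallen below day 0 in E14Tg2a (-0.54, SE 0.15, adjusted p = 0.00299), and in the clones the values were -0.09 in both (adjusted p = 0.643 and 0.664).

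**Figure D2:**
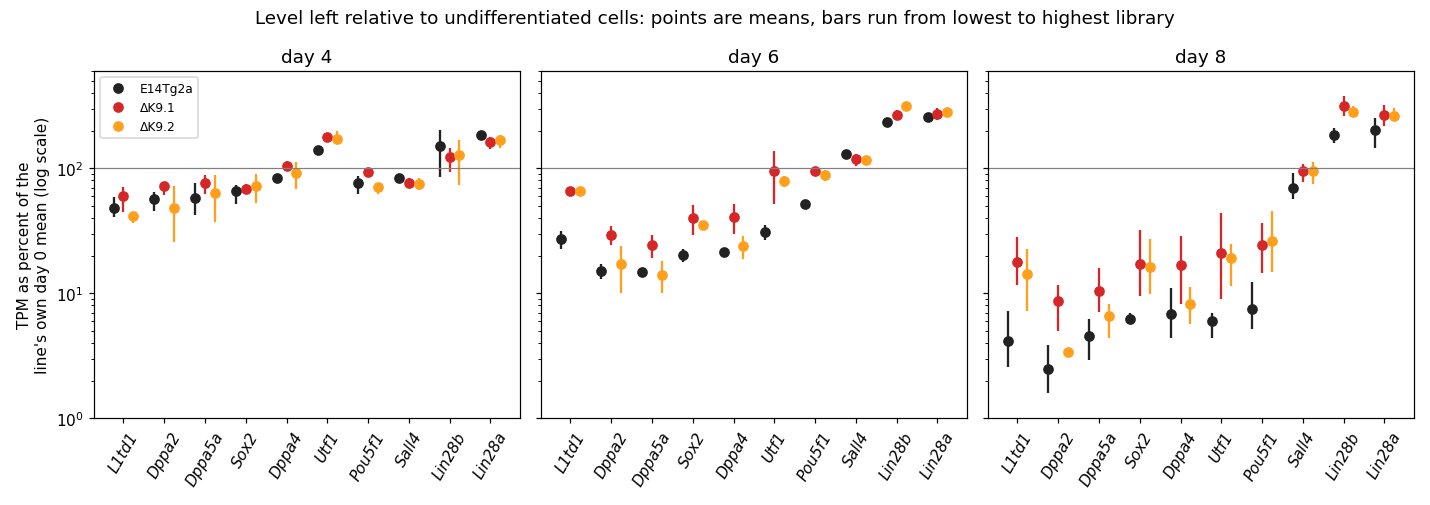
Group mean TPM as a percent of the same line's day 0 mean (log axis) on days 4, 6 and 8 for each gene; points are means and bars run from the lowest to the highest library. On day 8 the E14Tg2a mean of Pou5f1 is at 7.55% and those of ΔK9.1 and ΔK9.2 at 24.1% and 26.4%, and Lin28a and Lin28b lie above 100% in every line.

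The clones followed the same courses, later in the case of some genes. On day 6, 6 of the 10 genes had changed from day 0 in each clone: Sox2, Dppa2, Dppa4 and Dppa5a had fallen and both Lin28 genes had risen, against 20.3% of all genes down and 11.2% up in ΔK9.1 and 23.9% down and 16% up in ΔK9.2 (limma). Pou5f1, Utf1 and L1td1, all called lower in E14Tg2a on that day, were not called in the clones, with log2 fold changes of -0.07 and -0.19 for Pou5f1, -0.24 and -0.35 for Utf1, and -0.62 and -0.61 for L1td1. On day 6 the clones thus held 95.1% and 87.9% of their day 0 level of Pou5f1 (n = 2 each). By day 8, 9 of the 10 genes were called in each clone, 7 down and 2 up, with Sall4 the exception (24.8% of all genes down and 25.1% up in ΔK9.1, 26.7% and 24.6% in ΔK9.2). From day 0 to day 8 Pou5f1 changed by -2.15 (ΔK9.1) and -2.10 (ΔK9.2) on the log2 scale, against -3.83 in E14Tg2a, and L1td1 by -2.58 and -2.93, against -4.67.

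Over the 12 group means of log2(TPM + 1), the genes that fell followed one another closely, as a description over points that share the libraries of 3 lines and 4 days. Pearson's r was 0.990 between Dppa2 and Dppa5a, 0.986 between Dppa2 and Dppa4, 0.977 between Pou5f1 and L1td1 and 0.900 between Pou5f1 and Sox2. Lin28a and Lin28b had r = 0.932 with each other and negative values with the 7 falling genes (-0.41 to -0.87). Sall4 reached at most 0.448 with any other gene of the set. Among all genes, the profile most like that of Pou5f1 was that of its antisense neighbour Gm19553 (r = 0.990), followed by Prdx1 (0.983) and Bid (0.981). Gm19553 was at 2.702 to 7.56 TPM on day 0 and at 0.204 to 2.51 TPM on day 8. The genes most like Sox2 were Rnf138, Zfp7 and Adam23 (0.991, 0.990 and 0.990), those most like Lin28b were Adgrl2, Khdrbs1 and Timm21 (0.987, 0.986 and 0.985), and those most like Utf1 were Deptor, Ptpn3 and Phc1 (0.989, 0.988 and 0.982).

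Before differentiation, the clones differed little from E14Tg2a in these genes. Averaged over both clones, none of the 10 was called with limma (3.81% of 14504 genes were called higher and 1.91% lower), although 5 had an unadjusted p under 0.05: Sox2 and Sall4 in the direction of higher, and Utf1, Dppa4 and L1td1 in the direction of lower values in the clones. Replicate numbers paired the libraries on this day, and in a fit blocked on that number 5 genes passed (limma, 12.2% of genes higher and 6.43% lower). Of these, Sox2 (log2 fold change 0.22, adjusted p = 0.0235) and Sall4 (0.23, adjusted p = 0.0326) were higher and Pou5f1 (-0.19, adjusted p = 0.0284), Utf1 (-0.19, adjusted p = 0.0347) and L1td1 (-0.20, adjusted p = 0.0364) lower. Sall4 was at 55.8, 56.0 and 58.3 TPM in E14Tg2a and at 58.7 to 71.3 TPM (median 67.8) in the 6 clone libraries, so the groups did not overlap, as for 5.17% of all genes in that direction.

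For most of the 10 genes the day 0 difference from E14Tg2a was larger in size in ΔK9.1 than in ΔK9.2. The exceptions were Lin28b and Dppa5a. In ΔK9.1, Sox2 was higher (log2 fold change 0.31, SE 0.08, limma, adjusted p = 0.0258) and Pou5f1 (-0.36, SE 0.11, adjusted p = 0.0482) and L1td1 (-0.39, SE 0.07, adjusted p = 0.0101) were lower, which made 3 of 10 genes against 10.1% of genes called higher and 5.36% lower. With the replicate block 7 of 10 passed (19.6% of genes higher, 11.3% lower), and with all 33 libraries in one fit none did. In ΔK9.2 none of the 10 was called by limma (0.00689% of genes higher and 0.0758% lower), with 1, Sall4, at an unadjusted p under 0.05. Tested against each other, the clones differed on day 0 in L1td1 alone, at 303, 328 and 340.3 TPM in ΔK9.1 and 409, 426 and 425 TPM in ΔK9.2 (log2 fold change -0.38, SE 0.07, adjusted p = 0.0436, 0.903% of genes lower and 1% higher). With the replicate block that comparison called 4 genes, L1td1, Pou5f1, Dppa2 and Dppa5a, all lower in ΔK9.1 (adjusted p 0.0109 to 0.0173, limma, 6.12% of all genes lower).

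On day 4 no difference between the lines passed the test in these genes. None of the 10 was called in the mean of the clones (0.447% of genes higher and 2.4% lower, limma), none at an unadjusted p under 0.05, and none with the replicate block. Utf1 stood at 330.4 to 378 TPM in E14Tg2a and at 353 to 456 TPM in the clones. The 95% interval of the difference reached from -0.64 to 0.49 on the log2 scale for Pou5f1 and from -0.28 to 0.90 for Sox2, so no difference within those bounds was excluded by the data.

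On day 6 the clones stood above E14Tg2a in value, but with 2 libraries per line none of the 10 genes passed the test (1.11% of genes higher and 2.72% lower). All 10 log2 fold changes were above 0, and Sox2, Utf1 and L1td1 had an unadjusted p under 0.05. With the replicate block these 3 passed (adjusted p 0.0116 to 0.0271, limma, 3.7% of all genes higher). Pou5f1 was at 1230.4 and 1369 TPM in ΔK9.1 and 1665 and 1376 TPM in ΔK9.2, all above the 848 and 959 TPM of E14Tg2a (log2 fold change 0.64, SE 0.34, limma, adjusted p = 0.350). Sox2 was at 119 and 204 TPM in ΔK9.1 and 127 and 126 TPM in ΔK9.2 against 58.1 and 74.4 TPM (1.08, SE 0.35, adjusted p = 0.0846). Replicate 3 of ΔK9.1, the highest in Sox2, stood apart in its summed mesoderm markers, at 74.0 TPM against 406 to 518 TPM in the other clone libraries of that day, and without it the Sox2 difference was 0.89 (limma, adjusted p = 0.320). The part of that library's cell types in the difference was not tested. Utf1 and L1td1 likewise had all 4 clone libraries above both E14Tg2a libraries, which made 4 of 10 genes, against 12.8% of all genes in that direction. Within the clones, L1td1 did not change by test from day 4 to day 6 (0.15 and 0.65, adjusted p = 0.820 and 0.188, limma), with 194 to 281 TPM on day 6 and 145 to 228 TPM on day 4.

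On day 8 the clones kept higher levels of most of the core pluripotency genes. Of the 10 genes, 7 were called higher in the mean of both clones and none lower, against 7.52% of all genes called higher and 12.2% lower (limma). L1td1, Pou5f1, Sox2 and Utf1 differed most, with 3.33, 2.96, 3.13 and 2.93 times the E14Tg2a mean. The log2 fold changes of all 10 genes were above 0, with a median of 0.80 (all genes 0.00).

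Pou5f1 was at 215, 92.3 and 91.0 TPM in E14Tg2a, at 289.7, 198 and 501 TPM in ΔK9.1 and at 789, 256 and 325 TPM in ΔK9.2. All but 1 of the 6 clone libraries were above the highest E14Tg2a library, and each exceeded the E14Tg2a library that carried the same replicate number. The log2 fold change was 1.52 (SE 0.27, limma, adjusted p = 0.000411). Sox2 was at 22.7, 19.0 and 19.4 TPM in E14Tg2a, 38.9, 38.9 and 129.8 TPM in ΔK9.1 and 41.8, 35.6 and 98.0 TPM in ΔK9.2. The groups did not overlap, and replicate 3 of each clone stood well above the other clone libraries. The log2 fold change was 1.41 (SE 0.29, adjusted p = 0.00120), and 0.90 (adjusted p = 0.000526) without those 2 libraries, limma in both.

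L1td1 was at 30.7, 11.1 and 11 TPM in E14Tg2a, 43.5, 37.8 and 90.9 TPM in ΔK9.1 and 95.5, 30.3 and 54.3 TPM in ΔK9.2. Only replicate 2 of ΔK9.2 fell within the E14Tg2a range. Its log2 fold change, 1.71 (SE 0.29, limma, adjusted p = 0.000213), was the largest of the 10. Utf1 was at 17.5, 10.9 and 16.3 TPM in E14Tg2a, 20.3, 18.6 and 89.9 TPM in ΔK9.1 and 48.7, 26.6 and 58.0 TPM in ΔK9.2, without overlap but with 2 of the ΔK9.1 libraries close to E14Tg2a (log2 fold change 1.29, SE 0.32, adjusted p = 0.00644). Without replicate 2 of E14Tg2a, the Utf1 difference was 1.09 and no longer passed (adjusted p = 0.0772, limma).

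Sall4 was at 52.2, 34.2 and 32.3 TPM in E14Tg2a, 73.7, 68.1 and 53.1 TPM in ΔK9.1 and 72.6, 65.3 and 48.3 TPM in ΔK9.2. It differed less in size but with little spread (log2 fold change 0.68, SE 0.13, limma, adjusted p = 0.000582). Dppa5a (0.86, SE 0.28, adjusted p = 0.0300) and Dppa2 (0.74, SE 0.25, adjusted p = 0.0396) passed, and both lost the call when single libraries were left out. Dppa2 did so without replicate 1 or 3 of E14Tg2a, replicate 2 or 3 of ΔK9.1 or replicate 1 or 2 of ΔK9.2 (adjusted p 0.0559 to 0.190), and Dppa5a without replicate 1 or 3 of E14Tg2a, replicate 3 of ΔK9.1 or replicate 2 or 3 of ΔK9.2 (adjusted p 0.0505 to 0.191). Dppa4 (0.55, SE 0.27, adjusted p = 0.153), Lin28a (0.39, SE 0.14, adjusted p = 0.0558) and Lin28b (0.43, SE 0.21, adjusted p = 0.158) were not called. Dppa4 passed without replicate 2 of E14Tg2a (0.91, adjusted p = 0.0464) or replicate 1 of ΔK9.1 (0.75, adjusted p = 0.0346), and Lin28a without replicate 1 of E14Tg2a, replicate 2 of ΔK9.1 or replicate 3 of ΔK9.2 on day 8, or replicate 1 of E14Tg2a on day 0 (adjusted p 0.00732 to 0.0464). For Lin28b all clone libraries (24.3 to 36.2 TPM) nevertheless lay above E14Tg2a (17.7 to 23.5 TPM), which with Sox2 and Utf1 made 3 genes without overlap, against 5.44% of all genes in that direction. With the replicate block Lin28a passed as well (adjusted p = 0.00943, limma), and 8 of 10 genes were called, against 13.1% of all genes higher.

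Whether these differences passed depended on which libraries gave the estimate of spread. In the fit above it came from all 33 libraries. Fitted on the 9 libraries of day 8 alone with limma, none of the 10 genes passed (adjusted p 0.0562 to 0.405), 8 had an unadjusted p under 0.05, and 666 of 14637 genes were called.

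**Figure D3:**
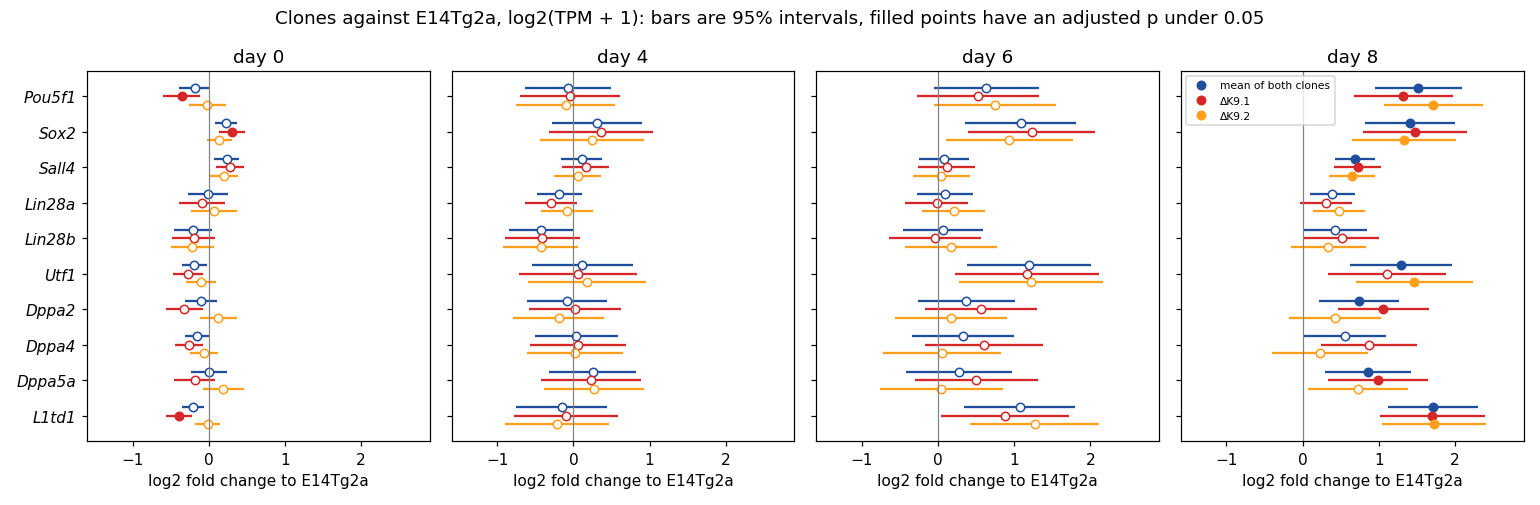
Log2 fold change to E14Tg2a on days 0, 4, 6 and 8 for each gene, for the mean of both clones and for each clone, with 95% intervals; filled points have a Benjamini-Hochberg adjusted p under 0.05 with limma. On day 8 all points lie above 0 and 7 of the 10 blue points are filled, and on days 4 and 6 none is.

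Both clones showed the day 8 difference. ΔK9.1 had 6 genes higher than E14Tg2a (4.65% of all genes higher) and ΔK9.2 had 5 (5.31%), with Pou5f1, Sox2, Sall4 and L1td1 called in both. Pou5f1 had log2 fold changes of 1.32 (ΔK9.1) and 1.72 (ΔK9.2), and L1td1 of 1.70 and 1.73. With the replicate block the counts were 8 (10.6% of all genes higher) and 7 (10.4%). Fitted on the libraries of day 8 alone, none of the 10 was called in either clone (limma, adjusted p 0.119 to 0.475 and 0.0938 to 0.792), with 7 and 5 at an unadjusted p under 0.05. Without single libraries the count for ΔK9.1 ran from 3, without replicate 3 of E14Tg2a or replicate 3 of ΔK9.1 itself, to 8. Tested against each other on day 8, the clones differed in none of the 10 genes with limma (0% of all genes in either direction, and on days 4 and 6 at most 0.00612%), nor on days 4 and 6. On day 8 Dppa2 and Dppa4 had an unadjusted p under 0.05, and on days 4 and 6 none had. The 95% interval of the difference between the clones on day 8 ran from -1.05 to 0.26 for Pou5f1 and from -0.54 to 0.82 for Sox2.

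The fall from day 0 to day 8 was itself smaller in the clones for 2 genes. The difference between the clones and E14Tg2a in the change from day 0 (interaction) was 1.71 on the log2 scale for Pou5f1 (SE 0.39, limma, adjusted p = 0.0119) and 1.92 for L1td1 (SE 0.41, adjusted p = 0.00845), while 1.35% of all genes had a called interaction in that direction and 4.95% in the other. With the replicate block Sox2, Sall4, Utf1 and Dppa5a passed as well, making 6 genes (5.46% of all genes in that direction). Without replicate 2 of E14Tg2a on day 8 the interaction of Pou5f1 was 1.51 and did not pass (adjusted p = 0.0628), which left 1 gene, and without replicate 1 of E14Tg2a or replicate 2 of either clone 4 genes passed. None was called on day 4 or day 6 (limma, 0.0122% and 0.0612% of all genes in that direction), where 0 and 2 genes had an unadjusted p under 0.05.

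The day of 50% of day 0 was later in both clones for 3 genes. Pou5f1 reached it on day 6.94 in both clones (range over left-out libraries 6.77 to 7.08 and 6.68 to 7.12) against 6.03 in E14Tg2a (5.83 to 6.12). Utf1 did so on day 6.84 (6.08 to 7.07) and 6.64 (6.53 to 6.74) against 5.37 (5.25 to 5.49), and Sox2 on day 5.16 (4.74 to 6.01) and 5.02 (4.80 to 5.16) against 4.47 (4.39 to 4.59). In these 3 genes the ranges of the clones lay apart from that of E14Tg2a. For Dppa5a, Dppa4 and Dppa2 the days of ΔK9.1 were later (4.73, 5.56 and 4.82), and those of ΔK9.2 (4.32, 4.89 and 3.83) overlapped E14Tg2a. L1td1 first crossed 50% on day 6.41 in ΔK9.1 and on day 3.16 in ΔK9.2, where it was then back at 65.4% on day 6.

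Genes that OCT4 and SOX2 act on or work with were also higher in many cases. Of 22 such genes, chosen from background knowledge with Nanog among them, 15 were higher in the clones on day 8 and 1 lower (7.52% and 12.2% of all genes), with a median log2 fold change of 0.92 (all genes 0.00). Blocked on the replicate number, 18 were higher (13.1%) and 1 lower (18%). In E14Tg2a, 21 had fallen by day 8 (26.2% of all genes). Large differences were those of Lefty1 (1.81, SE 0.26, limma, adjusted p = 3.17e-05) and Lefty2 (1.63, SE 0.25, adjusted p = 7.5e-05), inhibitors of Nodal signalling, and Nanog itself (1.79, SE 0.23, adjusted p = 1.28e-05). Of the genes of this list most abundant on day 0, Zfp42 (REX1) was at 10.2 ± 3.75 TPM in E14Tg2a and 29.2 ± 13.7 TPM in the clones, Tdgf1, a Nodal co-receptor, at 19.2 ± 15.6 and 54.3 ± 38.3 TPM and Spp1 at 10.7 ± 2.15 and 22 ± 13.1 TPM (SD, n = 3 and 6), and each passed the test. Klf4, a factor of the naive state, was the gene that was lower (-0.96, adjusted p = 0.00138).

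Fewer genes were called in the lists of the other members' partners and relatives, where the background was 7.52% of all genes higher and 12.2% lower. Of 20 genes of the LIN28 and let-7 pathway that were tested, Hmga1, a let-7 target (log2 fold change 0.46, adjusted p = 0.00969), and Drosha, the nuclear microRNA-processing enzyme (0.35, adjusted p = 0.0144), were higher in the clones on day 8 and none lower (limma), and with the replicate block 6 were higher (13.1% of all genes). Of 16 SALL4 and NuRD complex genes, the SALL4 paralogue Sall1 was the 1 higher gene, of 3 with the replicate block (12.3 ± 1.68 TPM in E14Tg2a and 25.7 ± 2.62 TPM in the clones, log2 fold change 1.01, adjusted p = 1.15e-05), and Rbbp7 (-0.74) and Mbd2 (-0.54) were lower. The abundant NuRD subunits Mbd3, Hdac2 and Rbbp4 had values of 0.14, -0.06 and 0.19 and were not called. Among 22 other POU and SOX family genes, Pou3f1 (1.61, adjusted p = 0.00675), Sox3 and Sox10 were higher, and Sox17 (-2.0, adjusted p = 0.04999), Sox18 (-1.54), Sox6 (-1.14) and Sox5 (-1.01) were lower. Sox17 and Sox18 mark endodermal and endothelial cells.

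**Figure D4:**
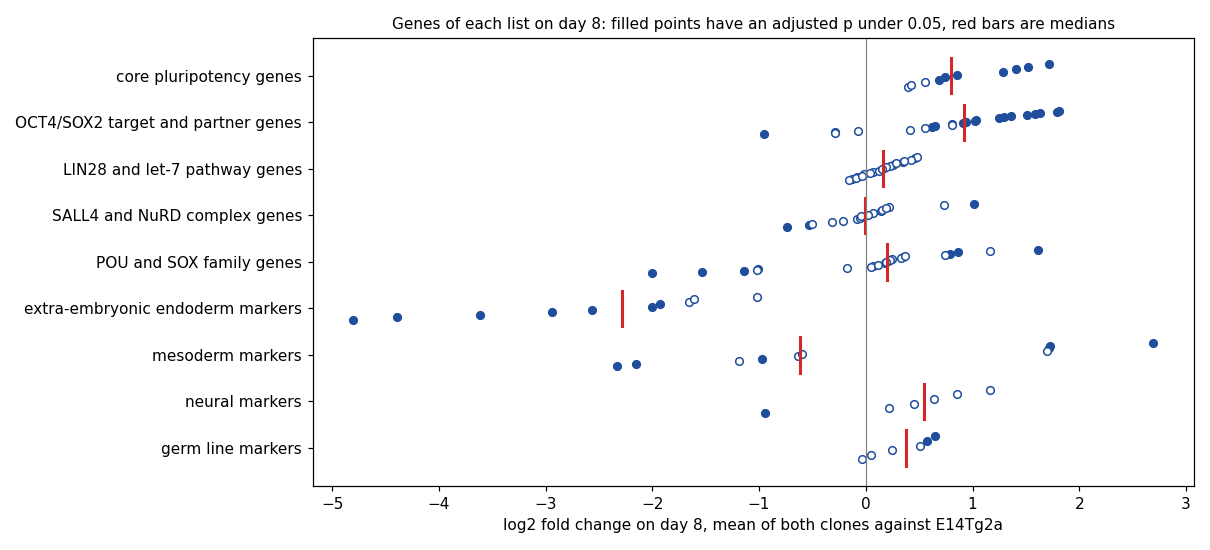
Log2 fold change of the mean of both clones to E14Tg2a on day 8 for the core pluripotency genes and each gene list; filled points have an adjusted p under 0.05 with limma and red bars are list medians. The medians of the core genes and of the OCT4/SOX2 target and partner genes are 0.80 and 0.92, and that of the extra-embryonic endoderm markers is -2.28.

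Markers of differentiated cells also differed, and those of extra-embryonic endoderm and mesoderm did so before day 8. On day 4, when none of the core genes was called, 7 of these 10 markers were lower in the clones (limma, 2.4% of all genes), with sums of 103 to 801 TPM in E14Tg2a and 5.94 to 199 TPM in the clones. On day 6 the count was 3 (2.72% of all genes), with 126 to 247 TPM and 12.8 to 46.0 TPM, and 3 of 10 mesoderm markers were likewise lower, with 580 to 689 TPM and 74.0 to 518 TPM. Blocked on the replicate number, 8 endoderm and 5 mesoderm markers were lower on day 6 (7.09% of all genes). On day 8 all 10 extra-embryonic endoderm markers were lower in the clones in value, 7 passed the test (12.2% of all genes lower; 10 and 18% with the replicate block), and their summed level was 371 to 508 TPM in E14Tg2a and 35.0 to 149 TPM in the clones, with none at 0. Ttr (-4.81, SE 0.74, limma, adjusted p = 8.43e-05) and Afp (-4.40, SE 0.85, adjusted p = 0.000804), secreted by visceral endoderm, differed most. Of 10 mesoderm markers, 3 were higher and 3 lower (7.52% and 12.2% of all genes). The early markers T (2.70, adjusted p = 0.00758), Eomes (1.72, adjusted p = 0.0110) and Mesp1 (1.72, adjusted p = 0.0396) were higher (limma). The heart genes Tnnt2 (-2.33), Myl7 (-2.15) and Tbx5 (-0.98) were lower. The list summed to 695 to 777 TPM in E14Tg2a and 162 to 728 TPM in the clones. Hand1 was by far its most abundant gene on day 8, at 582 ± 74.7 TPM in E14Tg2a and 287 ± 134 TPM in the clones. It was not called (-1.19, limma, adjusted p = 0.0599), and the day 8 sums follow Hand1 more than the other markers. Of 6 germ line markers, Prdm14 and Dnd1 were higher (7.52% of all genes), with sums of 8.77 to 14.5 TPM and 13.97 to 19.9 TPM. What part these cell types had in the levels of the core genes was not tested.

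The libraries with the highest Sox2 on day 8 also had the most Sox1, a neural marker. Replicate 3 of ΔK9.1 and of ΔK9.2 held 6.13 and 7.23 TPM of Sox1 against 0.0753 to 2.20 TPM in the other 7 libraries of that day, and 162 and 309.7 TPM of the summed mesoderm markers, the lowest of the day. The other 5 neural markers did not all go that way in these 2 libraries. Pax6 was likewise highest there (2.38 and 3.54 TPM), whereas Tubb3 was at 8.43 TPM in the first and lowest of the day in the second (4.997 TPM), and Zic1 was at 0.678 and 6.00 TPM. Nes was at 30.5 and 30.6 TPM in these 2 libraries, against 37.9 TPM in replicate 1 of ΔK9.2 and 11.4 to 27.4 TPM in the others. Map2 was at 4.52 and 3.87 TPM, against 4.38 TPM in replicate 1 of ΔK9.2 and 1.15 to 3.25 TPM in the others. SOX2 is also a factor of neural progenitors. Of the 6 neural markers tested, none was called higher in the clones (1, with the replicate block) and Tubb3 was lower (-0.94, adjusted p = 0.00510, limma). The sums were 25.9 to 53.8 TPM in E14Tg2a and 33.1 to 56.2 TPM in the clones. Without both libraries, Pou5f1 (1.42), Sox2, Sall4 (0.84), Utf1 (0.82) and L1td1 (1.52) remained called in the mean of the clones, 5 genes in all.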

How the data were processed

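RNA-seq was carried out by the authors on 33 libraries of 3 lines and 4 days, from 3 independent differentiation assays, with day 6 of the first not analysed here. Per the labels and the study's methods, reads were aligned with STAR to mm10 and transcript levels estimated with RSEM, which divides reads shared by similar transcripts, and differential genes were called with DESeq2. The deposited values are gene-level TPM, and 22 columns of the authors' own comparisons (fold changes and p-values) were not used. TPM keeps no depth, and with 3 (day 6: 2) replicates per group precision rests on the spread between replicates.

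Values were analysed as log2(TPM + 1) with limma 3.58.1 (trended empirical Bayes, R 4.3.3), so fold changes understate those of low genes. Tests covered genes averaging 1 TPM or more in some group: 14504 in the 9 libraries of day 0 for comparisons of lines on that day, and 16336 in all 33 libraries otherwise. A gene was called at a Benjamini-Hochberg adjusted p under 0.05 over all genes tested, and the p-values are two-sided. A count model could not be used on TPM. The procedure was tested on simulated data. Overlaps and copies came from the GENCODE annotation and BLAST 2.17.0, promoters from RefSeq.

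The 10 genes, the gene lists and the tests were chosen with earlier results of these data known. All 10 genes, Nanog, and from each list up to 4 genes with the largest called day 8 difference and up to 4 with the highest day 0 level were named, and for Pou5f1, Sox2, Lin28b and Utf1 the 3 genes with the most similar profile. Genes outside that rule (Sox1, Sox3, Sox5, Sox10, Klf4, Mesp1, Tbx5, Hand1 and Zic1) were named after their values were seen. A gene that the rule would name is not reported here. Replicate numbers were taken to pair the lines on days 0, 4 and 8, since all 27 same-numbered pairs of different lines correlated above 0.1 in their deviations from the group means (0.120 to 0.458, different numbers median -0.14), and not clearly on day 6 (4 of 6 pairs), nor between days of a line (16 of 45). The study's methods state that the lines were differentiated side by side, on day 6 too, whereas the labels do not say which assay a number stands for. Deviations from group means lean negative between different numbers by construction. With 2 libraries per group on day 6 they are the negatives of the same-numbered values and add nothing. Alternatives were another pseudocount, filters, rescaling, the replicate block, other libraries in the fit, fold thresholds, and each library left out.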

Additional observations from a re-analysis of the deposited data

Results flagged for a closer look

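A test of the difference itself separated the lines in how far 2 of the 10 genes had changed by day 8. L1td1 had an interaction of 1.92 on the log2 scale (limma, adjusted p = 0.00845) and Pou5f1 one of 1.71 (adjusted p = 0.0119). In both genes each of the 6 clone libraries of day 8 exceeded the E14Tg2a library that carried the same number. The same held for Sox2, Sall4, Lin28a, Lin28b, Utf1 and Dppa5a, so it does not set these 2 genes apart. The 6 clone libraries were compared with only 3 E14Tg2a libraries.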

How the results depend on the processing

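The depth of the libraries is unknown, so levels near 1 TPM, such as Dppa2 in E14Tg2a on day 8, have no counting error here. Each group holds 2 or 3 libraries, and each deletion group is 1 clone. Of 3020 recomputed values for 80 results of single genes, 2941 kept their direction and their side of the threshold, 33 lost the call, 46 gained it and none that was called reversed, while 18 uncalled values changed sign. For every outcome below the cause was not tested, except that fold thresholds call fewer genes by their construction. The replicate block, where the numbers pair the libraries, changed the number of genes called of the 10 from 0 to 5 (clones, day 0), from 3 to 7 (ΔK9.1, day 0), from 1 to 4 (ΔK9.1 against ΔK9.2, day 0) and from 2 to 6 (interaction, day 8); where this is not clear, from 0 to 3 (clones, day 6), from 0 to 1 for ΔK9.1 and for ΔK9.2 on day 6, and from 1 to 2 (ΔK9.1, day 4 against day 0). Beyond these and the day 8 counts given with the results, it changed no other count of calls among the 10 genes by over 1.5 times. With other libraries in the fit (the compared day or line alone, or all libraries for day 0), the count went from 7 to 0 for the clones, 6 to 0 for ΔK9.1, 5 to 0 for ΔK9.2 and 2 to 1 for the interaction on day 8, from 3 to 0 for ΔK9.1 and 1 to 0 for ΔK9.1 against ΔK9.2 on day 0, from 0 to 1 for the clones and 0 to 2 for the interaction on day 6, and from 3 to 5 for E14Tg2a, day 4. Fold thresholds of 0.3 (day 0) and 1 on the log2 scale left 4 of 7 genes for the clones on day 8, 1 of 3, 0 of 1 and 2 of 4 for day 4 against day 0 in E14Tg2a, ΔK9.1 and ΔK9.2. A minimum of 5 TPM gave 2 in place of 1 for ΔK9.1, day 4, and the single call between the clones on day 0 was lost (0) with no minimum and with median ratio rescaling. A pseudocount of 0.1 moved no count past 1.5 times. Rescaling changed the share of higher genes among all calls from 66.6% to 53.6% (clones, day 0), from 15.7% to 35.7% (day 4) and from 21.5% to 36.5% (interaction, day 8). Leaving out each library in turn gave 5 to 8 genes for the clones, 3 to 8 for ΔK9.1, 4 to 6 for ΔK9.2 and 1 to 4 for the interaction on day 8. On day 4 the clones went from 0 to 1 without replicate 1 of E14Tg2a. On day 6 the range was 0 to 2 for the clones (1 or 2 without replicate 2 of ΔK9.1, or replicate 1 of E14Tg2a or 3 of either clone of day 8), 0 to 2 for ΔK9.1 and 0 to 1 for ΔK9.2 (both through the same ΔK9.1 libraries). On day 0 it was 1 to 4 for ΔK9.1 (1 without its replicate 1 or 2 or replicate 3 of E14Tg2a) and 0 to 2 between the clones (0 without any library but E14Tg2a 1 and 3). For day 4 against day 0 it was 1 to 4 in E14Tg2a (1 without replicate 3 of either day), 1 to 3 in ΔK9.1 (up to 3 without day 8 libraries, through the pooled spread) and 2 to 5 in ΔK9.2 (2 without its day 4 replicate 3), and for day 6 8 to 10 in E14Tg2a and 4 to 6 in ΔK9.1. In sets chosen after seeing the data, the interaction on day 8 gave 4 genes without replicate 3 of both clones, 2 without replicate 3 and 5 without replicate 1 of all lines, and the clones on day 8 gave 5, 5 and 6.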
